A study of Homo sapiens with 4 samples.

Results

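The 10 genes described here encode enzymes that make glutathione, attach it to other molecules or detoxify oxidants: GCLC, GCLM, MGST1, MGST2, MGST3, GSTP1, GSTO1, TXNRD1, NQO1 and HMOX1. They were taken as the probe sets whose platform annotation gives exactly 1 gene symbol equal to one of these names. All 10 were found, on 12 of the 36176 probe sets that carry 1 symbol. MGST1 and MGST3 had 2 probe sets each and the other 8 genes had 1, and the probe set with the highest mean signal stood for a gene.

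The signals come from 4 Affymetrix arrays of total RNA, 1 for each pairing of an osteosarcoma line (MG-63 or Saos-2) with a short hairpin RNA. The hairpin RNA was either the control sh-NC or sh-circ_0000073, which is directed against the circular RNA hsa_circ_0000073. Sample titles write si-NC and si-hsa_circ_0000073, taken here as the sh-NC and sh-circ_0000073 that the paper names for its arrays. No time after transfection is given. The comparison asks how expression in these cells differed once the circular RNA was targeted. Each line stands for a single tumor-derived culture, both groups of a line share that line's background, and hsa_circ_0000073 itself was not matched to a probe set, so its knockdown has no value here. A difference between bulk samples cannot tell fewer cells of a type from less RNA per cell.

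The paper describes designed RNAs against the junction of the circle, of which the first was taken further, and the labels do not say which was used for the arrays. That RNA and the control are shown because every hairpin change below is a contrast of such a pair, with the DNA overhang in capitals.
sh-hsa_circ_0000073-1: gcugcaaaggggcauaaggaaTT
sh-NC: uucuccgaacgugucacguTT

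Glutathione is a tripeptide thiol and the main small antioxidant of the cell. Glutamate-cysteine ligase, built of GCLC and GCLM, catalyzes the step that limits its synthesis. Glutathione transferases join glutathione to electrophiles, and some also reduce lipid peroxides. Many of these genes carry an antioxidant response element, a short DNA word bound by the transcription factor NRF2 together with a small MAF protein. NRF2 is held low by KEAP1, which hands it to a ubiquitin ligase, and BACH1 competes with it at HMOX1.

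Promoter sequences from RefSeq (GRCh38.p14) were found for 8 of the 10 genes, in 11 windows of 250 bases before a transcription start. MGST2 and HMOX1 have none here. The core of the antioxidant response element was searched as TGACNNNGC on both strands. It was present in 5 windows of 4 genes (GCLM, GSTP1, GSTO1 and TXNRD1), whereas 10.9% of all 35116 such windows hold it. The word of GSTP1 also contains TGANTCA, the word of AP-1 factors. A match is a description of letters and not of a bound site. The windows of 41 bases around the matches of the glutathione transferase and thioredoxin reductase genes are given first, with the matched word in capitals as it reads on the strand of the gene.
GSTP1, chr11:67583730-67583770, plus strand: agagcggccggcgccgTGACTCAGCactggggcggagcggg
GSTO1, chr10:104254650-104254690, plus strand: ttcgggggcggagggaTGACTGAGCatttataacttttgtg
GSTO1, chr10:104254715-104254755, plus strand: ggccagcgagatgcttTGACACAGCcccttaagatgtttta
TXNRD1, chr12:104215664-104215704, plus strand: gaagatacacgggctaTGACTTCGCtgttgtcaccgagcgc
TXNRD1, chr12:104286914-104286954, plus strand: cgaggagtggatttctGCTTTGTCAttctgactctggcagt

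GCLM and NQO1 are shown over the whole 250 bases because they had the largest increases of the 10 genes with sh-circ_0000073 in Saos-2. In GCLM the word TGACTAAGC lies on the opposite strand, from 34 to 26 bases before the start, and reads GCTTAGTCA on the strand of the gene. No match was found in this window of NQO1, which says nothing of sequence farther away.
GCLM, chr1:93909431-93909680, minus strand: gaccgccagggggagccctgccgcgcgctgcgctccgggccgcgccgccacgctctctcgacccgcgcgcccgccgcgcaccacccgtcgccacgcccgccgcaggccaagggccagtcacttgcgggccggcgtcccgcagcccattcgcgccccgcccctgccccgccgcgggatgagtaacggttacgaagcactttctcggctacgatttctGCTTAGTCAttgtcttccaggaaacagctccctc
NQO1, chr16:69726561-69726810, minus strand: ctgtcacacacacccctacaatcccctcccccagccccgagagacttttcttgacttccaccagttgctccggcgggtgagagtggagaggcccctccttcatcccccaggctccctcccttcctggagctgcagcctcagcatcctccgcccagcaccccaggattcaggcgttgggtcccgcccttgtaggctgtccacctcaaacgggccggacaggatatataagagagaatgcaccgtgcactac

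All values are log2 signals per probe set, made by the authors and given to 2 decimals, with array medians of 3.74 to 3.75 over 135750 probe sets. RB1, a gene damaged by deletion in Saos-2, separated the lines with 11.90 and 11.91 in MG-63 against 6.17 and 5.78 in Saos-2. Of 7 osteoblast and mesenchymal markers, 7 reached 6 on both Saos-2 arrays and 5 on both MG-63 arrays, where SP7 (2.83 and 2.94) and ALPL (3.89 and 3.97) did not. Summed over the 7 they gave 72.93 and 74.11 in MG-63 against 94.22 and 93.91 in Saos-2. Of 3 macrophage markers, CD68 and CD14 reached 6 on both MG-63 arrays and none did in Saos-2 (sums of 26.65 to 27.27 and 13.51 to 14.20), while the leukocyte marker PTPRC stayed between 3.84 and 4.30 on the 4 arrays. Of 3 epithelial markers, KRT19 reached 6 on both MG-63 arrays and EPCAM on both Saos-2 arrays (sums of 13.17 to 14.03 and 17.63 to 18.20), and the 3 endothelial and 2 hepatocyte markers stayed under 6. These markers move with the line, and their part in the results was not tested.

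The lines themselves differed in most of these enzymes, more than the hairpin changed them. The arrays of the lines did not overlap for any of the 10 genes, as was so for 59.0% of all probe sets. With limma, fitted to all 36176 probe sets with the line and the hairpin RNA as terms, 8 of the 10 differed between the lines, 4 of them higher in Saos-2 (GCLC, MGST2, MGST3 and HMOX1) and 4 higher in MG-63 (MGST1, GSTO1, TXNRD1 and NQO1). The background is 25.7% of all probe sets, and 55.1% of those with a mean log2 signal of at least 6. Each line enters with 1 culture per hairpin RNA and no replicate, so the error of these tests comes from how far the hairpin change differed between the lines, with 1 residual degree of freedom per probe set before moderation.

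**Figure D1:**
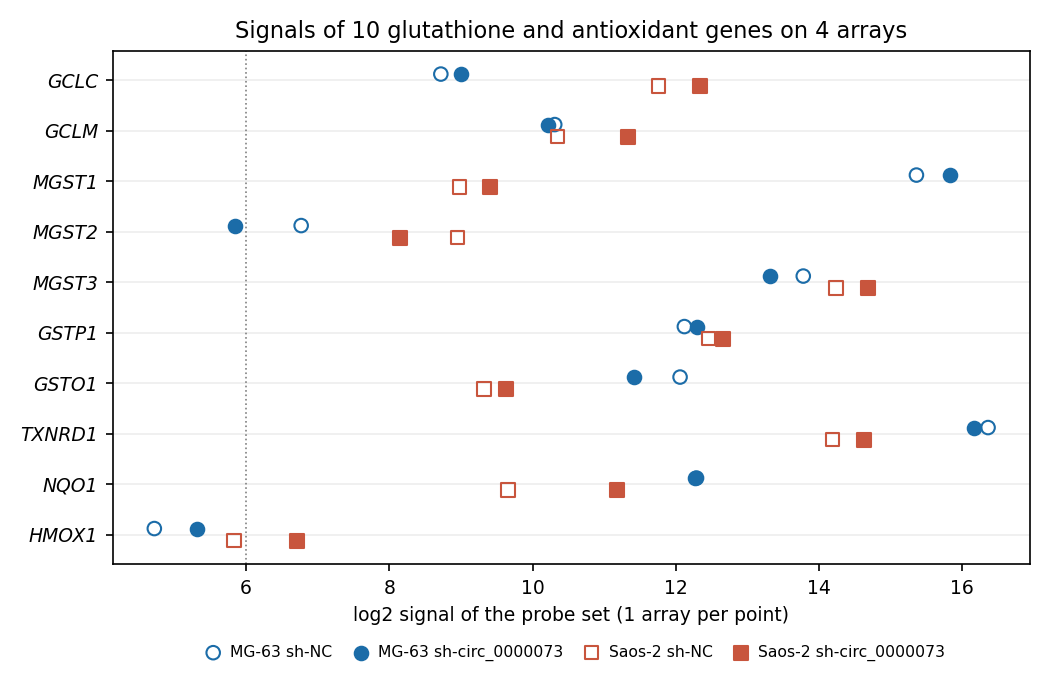
Log2 signal of each gene (rows) on the 4 arrays, with open symbols for sh-NC, filled symbols for sh-circ_0000073, blue circles for MG-63 and red squares for Saos-2. The dotted line marks a log2 signal of 6. MGST1 shows the widest gap between the lines (5.96), and both MG-63 points of NQO1 (12.29 and 12.27) lie on top of each other.

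The ligase that starts glutathione synthesis differed between the lines in its catalytic subunit. GCLC had log2 signals in MG-63 of 8.72 (sh-NC) and 9.0 (sh-circ_0000073), against 11.76 and 12.34 in Saos-2. Both Saos-2 arrays lay above both MG-63 arrays, by 9.13-fold on average (log2 difference 3.19 ± 0.27 SE, adjusted p = 0.00011 from limma). GCLM, the modifier subunit that raises the activity of the enzyme, had 10.31 and 10.22 in MG-63 against 10.35 and 11.34 in Saos-2. The sh-NC arrays of the lines were 0.04 apart, and the difference between the lines was not called (0.58 ± 0.33 SE, adjusted p = 0.27 from limma).

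The 3 microsomal glutathione transferases, membrane enzymes of the MAPEG family, each had a pattern of their own. MGST1, which also reduces lipid peroxides, had log2 signals of 15.36 and 15.83 in MG-63 against 8.98 and 9.40 in Saos-2, sh-NC first. Its signal was 84.7-fold higher in MG-63 (log2 difference of Saos-2 minus MG-63 of -6.41 ± 0.23 SE, adjusted p = 2.9e-06 from limma), and its other probe set lay between 3.98 and 4.50 on all arrays. As the mean of both probe sets the difference was -3.45, still called (adjusted p = 0.0002 from limma). MGST2, which can join glutathione to leukotriene A4, had 6.77 and 5.84 in MG-63 against 8.95 and 8.15 in Saos-2. The lines did not overlap, and MGST2 was 4.74-fold higher in Saos-2 (2.25 ± 0.28 SE, adjusted p = 0.00085 from limma). MGST1 and MGST2 thus differed between the lines in opposite directions.

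MGST3 had 13.78 and 13.32 in MG-63 against 14.24 and 14.68 in Saos-2. It was 1.88-fold higher in Saos-2 (0.91 ± 0.26 SE, adjusted p = 0.039 from limma, 0.0031 to 0.24 under the alternatives), and as the mean of its probe sets the difference was 0.56 and not called. Its second probe set, at 6.09 and 5.67 in MG-63 against 5.99 and 6.20 in Saos-2, overlapped between the lines and was not called (adjusted p = 0.69 from limma).

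The cytosolic transferases split. GSTP1, the pi class enzyme that is abundant in many tumors, had 12.12 and 12.29 in MG-63 against 12.46 and 12.66 in Saos-2. The gap between the nearest arrays of the lines was 0.17, no larger than the hairpin change within a line, and the difference was not called (0.36 ± 0.23 SE, adjusted p = 0.34 from limma). GSTO1, an omega class enzyme that also acts as a thiol reductase, had 12.06 and 11.41 in MG-63 against 9.32 and 9.63 in Saos-2. It was 4.79-fold higher in MG-63 (-2.26 ± 0.31 SE, adjusted p = 0.0013 from limma).

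The remaining enzymes are textbook NRF2 targets. TXNRD1, the cytosolic selenoenzyme that recycles thioredoxin, had 16.36 and 16.16 in MG-63 against 14.19 and 14.63 in Saos-2, and was 3.61-fold higher in MG-63 (-1.85 ± 0.21 SE, adjusted p = 0.00053 from limma). NQO1, which reduces quinones without forming radicals, had 12.29 and 12.27 in MG-63 against 9.66 and 11.18 in Saos-2. It was 3.63-fold higher in MG-63 (-1.86 ± 0.38 SE, adjusted p = 0.0085 from limma), and the arrays with sh-circ_0000073, nearest to each other, were 1.09 apart. HMOX1, the inducible heme oxygenase that releases iron and biliverdin from heme, was dim, with 4.72 and 5.31 in MG-63 against 5.83 and 6.71 in Saos-2. Only 1 of its 4 values reached 6, and it was 2.39-fold higher in Saos-2 (1.26 ± 0.28 SE, adjusted p = 0.013 from limma).

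**Figure D2:**
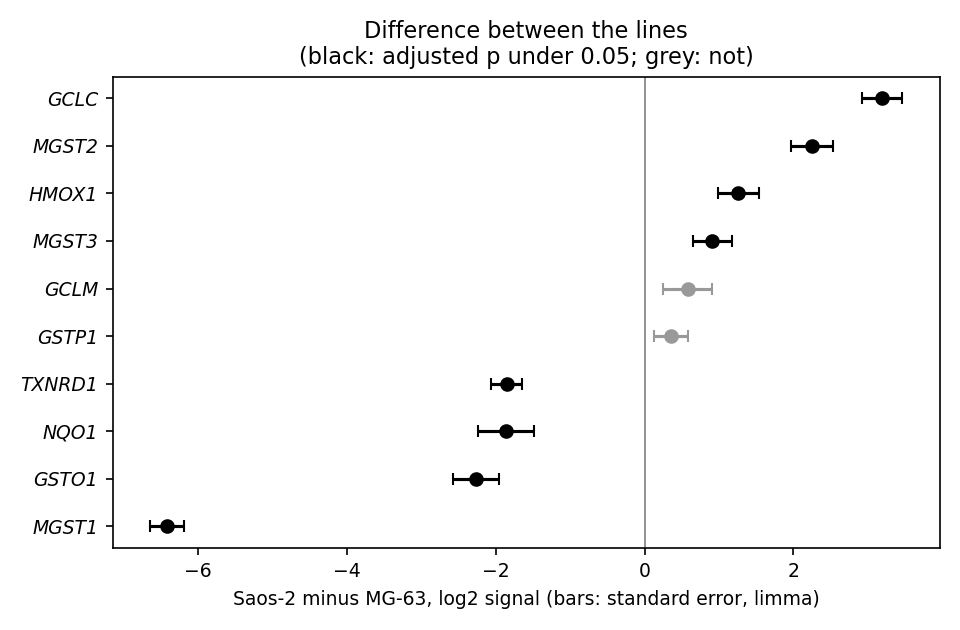
Difference in log2 signal, Saos-2 minus MG-63, for each of the 10 genes, from limma over 4 arrays, with bars of 1 standard error. Black points have an adjusted p under 0.05, and GCLM and GSTP1 (grey) do not. GCLC lies farthest to the right at 3.19 and MGST1 farthest to the left at -6.41.

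With sh-circ_0000073, MGST2 was lower in both lines and HMOX1 was higher in both, in each case past the fixed size of 1.5-fold, a size HMOX1 in MG-63 no longer reached after centering (0.57) or quantile normalization (0.54). NQO1 and GCLM were past that size in Saos-2 and close to 0 in MG-63. In MG-63, 1 of the 10 genes was more than 1.5-fold higher (HMOX1) and 2 were lower (MGST2 and GSTO1), against 8.93% and 7.18% of all probe sets and 15.1% and 11.9% of those with a log2 signal of at least 6 in that line. In Saos-2, 3 were higher (NQO1, GCLM and HMOX1) and 1 was lower (MGST2), against 8.91% and 5.22% of all and 16.5% and 9.12% of those with a signal of at least 6. With 1 array per condition these calls rest on size and carry no p.

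Small changes are counted here by their sign alone. In Saos-2, 9 of the 10 genes had a change above 0, against 56.4% of all probe sets and 60.1% of those with a log2 signal of at least 6 in that line. In MG-63, 4 of the 10 did, against 52.1% and 53.9%. The median change of the 10 was 0.44 in Saos-2 and -0.06 in MG-63. Beside it stand 0.06 and 0.02 over all probe sets, and 0.12 and 0.05 over those with a signal of at least 6. For scale, the interquartile range of the changes of probe sets with a signal of at least 6 was -0.30 to 0.38 in MG-63 and -0.20 to 0.43 in Saos-2.

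**Figure D3:**
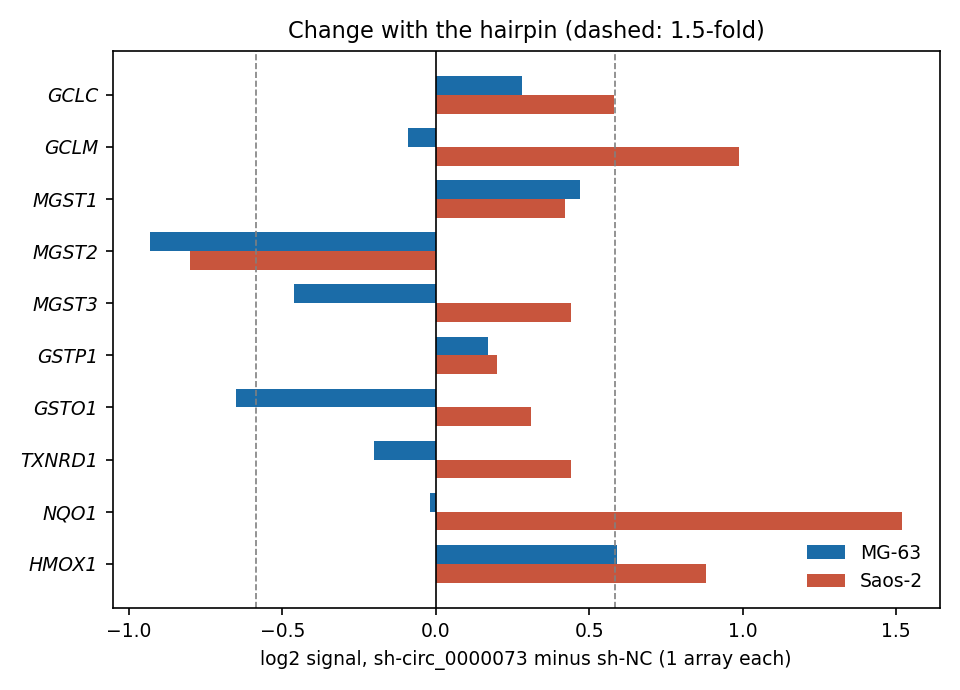
Change in log2 signal with the hairpin RNA, sh-circ_0000073 minus sh-NC, for each gene in MG-63 (blue) and Saos-2 (red), with 1 array per condition and dashed lines at 1.5-fold. MGST2 is the only bar pair below the lower line (-0.93 and -0.80), and NQO1 reaches 1.52 in Saos-2 against -0.02 in MG-63.

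MGST2 was the 1 gene of the 10 that was past 1.5-fold lower in both lines, as 1.23% of all probe sets were. Its signal was 1.91-fold lower in MG-63, a log2 change of -0.93, and 1.74-fold lower in Saos-2, a log2 change of -0.80. The changes of the lines differed by 0.13. Of the probe sets with a signal of at least 6, 4.59% in MG-63 and 5.25% in Saos-2 were lower by at least as much. MGST2 was picked by the study from these same arrays because it was lower in both lines, so its direction is given as a description, without a p. One of its 2 signals in MG-63, 5.84, lay under 6.

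Neither of the other membrane transferases passed 1.5-fold. MGST1 changed by 0.47 (MG-63) and 0.42 (Saos-2), and MGST3 by -0.46 and 0.44. The second probe set of MGST1 changed by -0.06 and 0.00, and as the mean of both probe sets MGST1 changed by 0.21 in each line. The second probe set of MGST3 changed by -0.42 and 0.21. GSTP1 had the smallest changes of the transferases in Saos-2, 0.20, and in MG-63, 0.17. GSTO1 was 1.57-fold lower in MG-63 (-0.65) and 0.31 higher in Saos-2.

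Of the glutathione synthesis genes, GCLM changed by 0.99 in Saos-2 (1.99-fold) and by -0.09 in MG-63. GCLC changed by 0.58 (Saos-2) and 0.28 (MG-63). The value in Saos-2 is 1.49-fold, just inside the threshold, and the value of HMOX1 in MG-63, 0.59 or 1.51-fold, is just outside it, so that the deposited rounding alone could exchange them.

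NQO1 was 2.87-fold higher in Saos-2 (1.52), where 1.19% of the 12410 probe sets with a signal of at least 6 were higher by as much, and its change in MG-63 was -0.02. TXNRD1 changed by 0.44 (Saos-2) and -0.20 (MG-63). HMOX1 was 1.84-fold higher in Saos-2 (0.88) and 1.51-fold higher in MG-63. It was the 1 gene past 1.5-fold higher in both lines, as 1.73% of all probe sets were, and both MG-63 signals behind it were under 6, so that a minimum of 6 in the line also removes the call.

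Over both lines, limma called 0 of the 10 genes for the hairpin RNA, and 0.0% of all probe sets. Of the 9 genes other than MGST2, 1 (HMOX1) had an unadjusted p under 0.05, against 7.26% of all probe sets. In a limma fit of probe sets with a mean log2 signal of at least 6, 1582 of 12091 did. HMOX1 had a mean log2 change of 0.74 ± 0.28 SE (adjusted p = 0.66 from limma, 0.56 to 1 under the alternatives). NQO1 had one of 0.75 ± 0.38 SE (adjusted p = 0.72 from limma, 0.43 to 1 under the alternatives). The adjusted p of these 9 genes ran from 0.66 to 1. GCLM, MGST3, GSTO1, TXNRD1 and NQO1 changed with opposite signs in the lines, as 45.7% of all probe sets did, and no test of the difference between the lines' changes was possible with 1 array per condition.

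Around these enzymes, 98 further genes of glutathione, thioredoxin, NRF2 and heme metabolism were listed and 92 were measured. With sh-circ_0000073, 6 were more than 1.5-fold higher and 10 lower in MG-63, beside 8.93% and 7.18% of all probe sets. The counts for Saos-2 were 15 and 7, beside 8.91% and 5.22%. Of the 92, 70 had a signal of at least 6 on an array. The shares for probe sets at that signal in the line were 15.1% and 11.9% (MG-63) and 16.5% and 9.12% (Saos-2). Against these shares the increases in MG-63 were fewer, and the remaining counts lay near them. The same shares are the background for the counts of each list below, with the same limit. The median change of the 92 genes was 0.06 (MG-63) or 0.13 (Saos-2). In both lines 3 were higher (PRDX4, PRDX1 and ME1) and 4 lower (GSR, GPX8, UGDH and CBR3), beside 1.73% and 1.23% of all probe sets. Those shares are over all 36176 probe sets, of which 12091 had a mean log2 signal of at least 6, so they include many dimmer than these genes. limma called 0 of the 92 for the hairpin RNA, while 12 had an unadjusted p under 0.05, beside 7.26% of all probe sets. In a limma fit of probe sets with a mean log2 signal of at least 6, 1582 of 12091 did. As 22 of the 92 lay under 6 on every array, these shares too are not over like sets.

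The reductase that regenerates glutathione had a lower signal in both lines. GSR went from 10.70 (sh-NC) to 8.83 (sh-circ_0000073) in MG-63 and from 10.43 to 9.27 in Saos-2, which is 3.66-fold and 2.23-fold lower. Both arrays with sh-circ_0000073 lay below both with sh-NC (mean change -1.52 ± 0.30 SE, adjusted p = 0.44 from limma). GSR is named for its shared direction on these same arrays, so this separation is a description. SLC7A11, the cystine importer that supplies cysteine for glutathione, had 13.83 and 13.32 in MG-63 against 11.85 and 13.58 in Saos-2. With sh-circ_0000073 it thus was 3.32-fold higher within Saos-2 and changed by -0.51 within MG-63. Of all 15 genes of synthesis and recycling, 1 passed 1.5-fold upward and 1 downward in MG-63, as did 3 and 1 in Saos-2.

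Of 14 measured further transferases, 1 passed 1.5-fold upward and 3 downward in MG-63, as did 0 and 1 in Saos-2, with GSTT2 at -1.31 in MG-63. Genes of the GSTM, GSTA and GSTT classes are close copies of each other, so their probes may pick up shared signal. Of the 3 further MAPEG genes, ALOX5AP presents arachidonic acid to the lipoxygenase of leukotriene synthesis. It had 4.87 and 5.30 in MG-63 against 6.03 and 7.75 in Saos-2, sh-NC first. Within Saos-2 it was 3.29-fold higher with sh-circ_0000073. Leukotriene C4 synthase, LTC4S, lay between 2.86 and 3.05 on the 4 arrays.

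Among 8 glutathione peroxidases, GPX8, of the endoplasmic reticulum, changed by -1.32 and -0.68 in MG-63 and Saos-2. GPX7, its relative in the same compartment, changed by -0.32 and -1.01, and GPX3, the secreted enzyme, by -1.19 and 0.59.

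Of 11 thioredoxin and peroxiredoxin genes, 2 were higher in both lines. PRDX4, the peroxiredoxin of the endoplasmic reticulum, had 12.73 and 14.47 in MG-63 against 11.87 and 14.13 in Saos-2, which is 3.34-fold and 4.79-fold higher. Both arrays with sh-circ_0000073 lay above both with sh-NC (mean change 2.0 ± 0.24 SE, adjusted p = 0.16 from limma). PRDX4, like GSR, is named for its shared direction on these same arrays, so this too is a description. PRDX1, the cytosolic peroxiredoxin, changed by 0.83 and 0.82. TXNIP, which binds and inhibits thioredoxin, changed by 2.38 in Saos-2, from 9.17 to 11.55, and by 0.25 in MG-63, where both signals were under 6. TXNRD2, the mitochondrial thioredoxin reductase, changed by -0.90 (MG-63) and 0.10 (Saos-2).

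SOD2, the mitochondrial superoxide dismutase, changed by 1.18 (MG-63) and 0.56 (Saos-2), and CAT, catalase, by -0.10 and 0.21. None of 8 measured genes for NRF2 and its regulators passed 1.5-fold in either line. NFE2L2, which encodes NRF2, changed by 0.05 (MG-63) and -0.27 (Saos-2), KEAP1 by -0.13 and -0.20, and BACH1 by -0.25 and 0.39. These are transcript signals, and the amount of NRF2 protein was not measured here.

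Of 19 measured further NRF2 targets, 1 passed 1.5-fold upward and 3 downward in MG-63, as did 4 and 2 in Saos-2. ME1, the malic enzyme that supplies NADPH, changed by 2.19 (Saos-2) and 0.61 (MG-63), and TKT, the transketolase of the pentose phosphate pathway, by 1.12 and 0.30. UGDH, which makes UDP-glucuronate, changed by -1.47 (Saos-2) and -0.69 (MG-63), and the carbonyl reductase gene CBR3 by -0.77 and -0.66. The CBR3 signals with sh-circ_0000073, 5.45 (Saos-2) and 5.63 (MG-63), lay under 6. Of 9 genes of heme and iron handling, 0 passed 1.5-fold in MG-63, while Saos-2 had 2 upward and 1 downward. In that line FTL, the ferritin light chain, changed by 1.06, the heme synthesis gene FECH by 1.05 and the iron exporter gene SLC40A1 by -0.92.

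**Figure D4:**
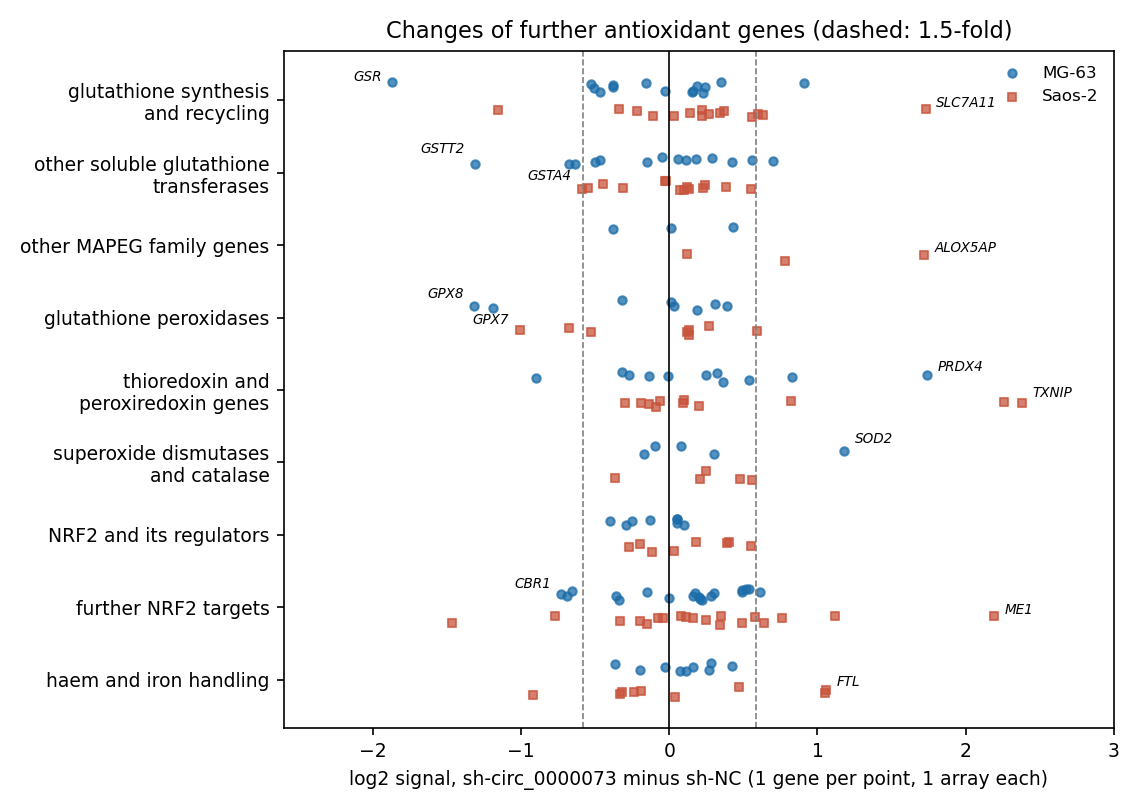
Change in log2 signal with the hairpin RNA for the 92 further genes, 1 point per gene and line, grouped by function (rows), in MG-63 (blue circles) and Saos-2 (red squares). Dashed lines mark 1.5-fold, and the gene with the largest change of a row and line is named where it passes them. All points of NRF2 and its regulators lie inside the dashed lines, as do 76 (MG-63) and 70 (Saos-2) of all 92 genes. TXNIP reaches 2.38 in Saos-2.

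Between the lines limma called 52 of the 92 further genes, 24 higher in Saos-2 and 28 higher in MG-63. The background is 25.7% of all probe sets and 55.1% of those with a mean log2 signal of at least 6. Of the 92, 22 lay under 6 on every array, so neither share is over a like set. CAT had 14.35 and 14.25 in MG-63 against 7.53 and 7.74 in Saos-2, so that it was 101-fold higher in MG-63 (-6.67 ± 0.26 SE, adjusted p = 3.9e-06 from limma). Of the 8 glutathione peroxidases, GPX1, the main cytosolic enzyme, was 13.7-fold higher in MG-63, GPX3 was 5.10-fold and GPX4, which reduces lipid hydroperoxides in membranes, 3.81-fold higher in Saos-2, and 5 were not called. Of the 8 genes for NRF2 and its regulators, 5 were higher in MG-63, 1 was higher in Saos-2 and 2 were not called. BACH1 was 9.71-fold, KEAP1 3.52-fold and NFE2L2 1.83-fold higher in MG-63 (adjusted p = 0.027 from limma for NFE2L2). CUL3, the scaffold of the ubiquitin ligase that KEAP1 serves, was the 1 gene higher in Saos-2, by 9.06-fold (adjusted p = 3.8e-05 from limma).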

How the data were processed

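The labels gave 4 samples in 4 groups, 1 array each. The deposited log2 signals per probe set are the authors' output of Affymetrix Expression Console. Its version, summarization and background step are not given in the sources consulted. Signals near the array median cannot be told from background, and precision is limited by having only 4 arrays. Gene names were taken from the platform annotation, in which 36176 probe sets had 1 symbol and were used, 1119 had several and 98455 had none.

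A change is sh-circ_0000073 minus sh-NC on the log2 scale, called past 1.5-fold (0.585) with no p. Differences over arrays were fitted with limma 3.58.1 (R 4.3.3) with line and hairpin RNA as terms, a trended prior variance and adjustment by Benjamini-Hochberg over all 36176 probe sets at 0.05, and the fit was tested on simulated data. With no replicates, the error is the disagreement of the hairpin change between the lines. Other steps ran in Python 3.11.15 with pandas 2.3.3.

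The 10 genes, the further lists and the tests were chosen with earlier results of these data known. From each further list up to 4 genes past 1.5-fold the same way in both lines were eligible to be named, and up to 3 with the largest change per line at a log2 signal of at least 6, with NFE2L2, KEAP1 and BACH1 in any case. GSTM1 and other eligible genes are covered by the counts. LTC4S, GPX4, CUL3, PRDX2 and NQO2 were named after their values were seen. Alternatives were the mean of all probe sets of a gene, centering, quantile normalization, a signal minimum of 6, a 2-fold threshold, all probe sets and other limma settings.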

Additional observations from a re-analysis of the deposited data

Results flagged for a closer look

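For 5 of the 10 genes the hairpin change had opposite signs in the lines, as it had for 45.7% of all probe sets. The change in Saos-2 exceeded that in MG-63 by 1.54 on the log2 scale for NQO1, 1.08 for GCLM, 0.96 for GSTO1, 0.90 for MGST3 and 0.64 for TXNRD1. Among the further genes GPX3 was past 1.5-fold in opposite directions, with a difference of 1.78. With 1 array per condition none of these differences was tested.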

How the results depend on the processing

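Changes past 1.5-fold of the 10 genes kept their sign under the alternatives run for them, and for the further genes only the counts were recomputed. The count of genes higher in MG-63, 1, and in both lines, 1, was 0 and 0 after centering, after quantile normalization and at a signal of at least 6, because HMOX1 in MG-63 then lay at 0.57 or 0.54 or was left out as too dim. At a 2-fold threshold the 10 genes gave 0 increases and 0 decreases in MG-63, 1 (NQO1) and 0 in Saos-2, and 0 and 0 in both. Of the 92 further genes, 2 were then higher and 4 lower in MG-63, 8 higher and 3 lower in Saos-2, and 1 higher and 1 lower in both.

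The count of line differences stayed within 1.5 times, and MGST3 was the 1 tested gene to lose its call. Its adjusted p from limma was 0.24 as the mean of its probe sets (difference 0.56) and 0.11 over all probe sets. Also from limma, it was 0.075 without the mean-variance trend and 0.051 without the hairpin RNA as a term. HMOX1 was too dim for the fit at a mean signal of at least 6 and was not tested there, which left 3 genes higher in Saos-2. For the hairpin RNA limma called none of the 10 under any setting, while over all probe sets it called 9 increases and 18 decreases after quantile normalization, 9 and 11 at a mean signal of at least 6, and 3 and 5 with robust moderation. The fit compares the hairpin RNAs within each line. No paired analysis was possible by replicate number because the labels carry none, and with 1 array per group no replicate could be left out.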

Other observations

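PRDX2 and NQO2 stood out between the lines and were picked after their values were seen. PRDX2, a cytosolic peroxiredoxin, had log2 signals of 13.40 and 13.72 in MG-63 against 4.21 and 4.15 in Saos-2, sh-NC first, the latter close to the array medians. BLVRB, a biliverdin reductase, had 12.44 and 12.72 in MG-63 against 8.48 and 8.24 in Saos-2. NQO2, the relative of NQO1, went the other way, with 5.61 and 5.25 in MG-63 against 10.30 and 10.10 in Saos-2. The difference was 27.3-fold (log2 difference 4.77 ± 0.28 SE, adjusted p = 2.3e-05 from limma).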
